A study of Mus musculus with 6 samples.

Results

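The genes described here are 35 genes of glycolysis and of the response to low oxygen, measured in mouse skin tumors and in healthy skin. They were chosen by name: every non-control probe of the array whose gene name is on the list was taken (60 probes), and the annotated chromosome of each probe was set against that of its gene. All 35 genes were measured, among 24757 features tested on the array. The 3 tumor arrays hold RNA from biopsies of skin tumors, labelled cSCC, that were raised in female FVB/N mice by painting the skin with DMBA, a mutagen, then with the phorbol ester TPA (also called PMA) over 6 weeks, and, following a second painting with DMBA, with TPA over a further 14 weeks. The 3 healthy skin arrays hold RNA from biopsies of skin of female FVB/N mice that was painted with acetone. Painted skin that bore no tumor is not among the samples, so tumor and treatment cannot be told apart. Nothing in the labels says that each biopsy is from another mouse. The p-values then measure only the spread between these samples, which may be technical.

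Glycolysis converts glucose to pyruvate. Its first steps spend ATP to make sugar phosphates, its later steps earn ATP and NADH, and lactate dehydrogenase restores NAD+ by making lactate, which leaves the cell through monocarboxylate transporters. When oxygen is low, prolyl hydroxylases of the Egln family no longer mark the subunit Hif1a for breakdown, and Hif1a with its partner Arnt binds DNA at short motifs built around CGTG and raises the transcription of many glycolytic genes and of targets such as Adm and Bnip3. Much of this control acts on the Hif1a protein, which an RNA array does not measure. Keratinocytes of skin are known to live on glucose to a large extent, and muscle, which can lie below the skin of a biopsy, has its own isozymes for several glycolytic steps.

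A value below is a log2 signal, that is the background-subtracted spot brightness on a log2 scale minus the 75th percentile of that array, so that 0 is the 75th percentile. A fold change is tumor over healthy skin. A gene is called where limma's p, adjusted by Benjamini-Hochberg over all 24757 features, was under 0.05. Between 48.7% and 65.4% of the 59305 non-control spots of an array were well above background and none were saturated. The lowest share was that of tumor 1, whose median background was 85 intensity units, while the other arrays had 23 to 26, and healthy skin 3 was the dimmest array (75th percentile 242, against 525 to 897 on the others). Of the marker lists, that of skeletal muscle had 16 of 16 genes lower in tumors and that of adipocytes 9 of 11 (median log2 fold change -4.46 and -4.26), among them the troponin gene Tnnc2 (-4.95), the muscle creatine kinase gene Ckm (-4.45) and the adipokine gene Adipoq (-4.61). None of either list was higher (0 also at an unadjusted limma p under 0.05). For comparison, 10.3% of all features were called higher and 15.6% lower. Of 10 neutrophil and macrophage genes 4 were higher and 1 lower, of 8 keratinocyte genes 2 were higher and 2 lower, of 6 fibroblast genes 1 was higher and 1 lower, and of 6 endothelial genes 1 was higher. Among these, the calprotectin subunit genes S100a8 (5.35) and S100a9 (5.68) of the neutrophil and macrophage list were higher in tumors. Itgam of the same list, named after its value was seen, was lower. The differentiation keratin Krt10 (-3.38) of the keratinocyte list was lower too, while 2 of the 8 genes of that list were higher. Which cells expressed S100a8 and S100a9 was not tested. In a bulk sample, fewer cells of a type and less RNA per cell cannot be told apart.

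Of the 35 genes, 12 were higher in tumors, 0 were lower and 23 did not pass the test. Over all features tested, 25.9% were called, 10.3% higher and 15.6% lower. At an unadjusted limma p under 0.05, 20 of the 35 were higher and 1, Ldhb, was lower. The shares above are for adjusted p, and the share of all features at the unadjusted threshold is not given here. The median log2 fold change of the 35 genes was 0.97, against -0.16 over all features, and 30 of the 35 had a positive change, against 43.9% of all features. All 3 tumors lay above all 3 healthy skin samples for 18 of the 35 genes (20.7% of all features) and below them for 2, Aldoa and Ldhb (29% of all features), and 15 genes overlapped. Groups were apart in either direction for 49.7% of all features. All 35 genes were well above background on every tumor array, and 34 were so on every healthy skin array. The exception was Egln1, detected on 2 of 3 healthy skin arrays. With the arrays aligned at their medians, 19 of the 35 were called higher, against 17.7% of all features, and the choice of scaling also moved the whole array. The median of all features was -0.16 here, against 0.21 when arrays were aligned at their medians and 0.73 when aligned on spike-in RNA, and higher features made up 39.8%, 62.9% and 70.8% of all called ones. Each change is therefore relative to the brighter signals of an array. Because the genes were chosen by name, with earlier results of these data known, these counts describe them and carry no test.

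**Figure D1:**
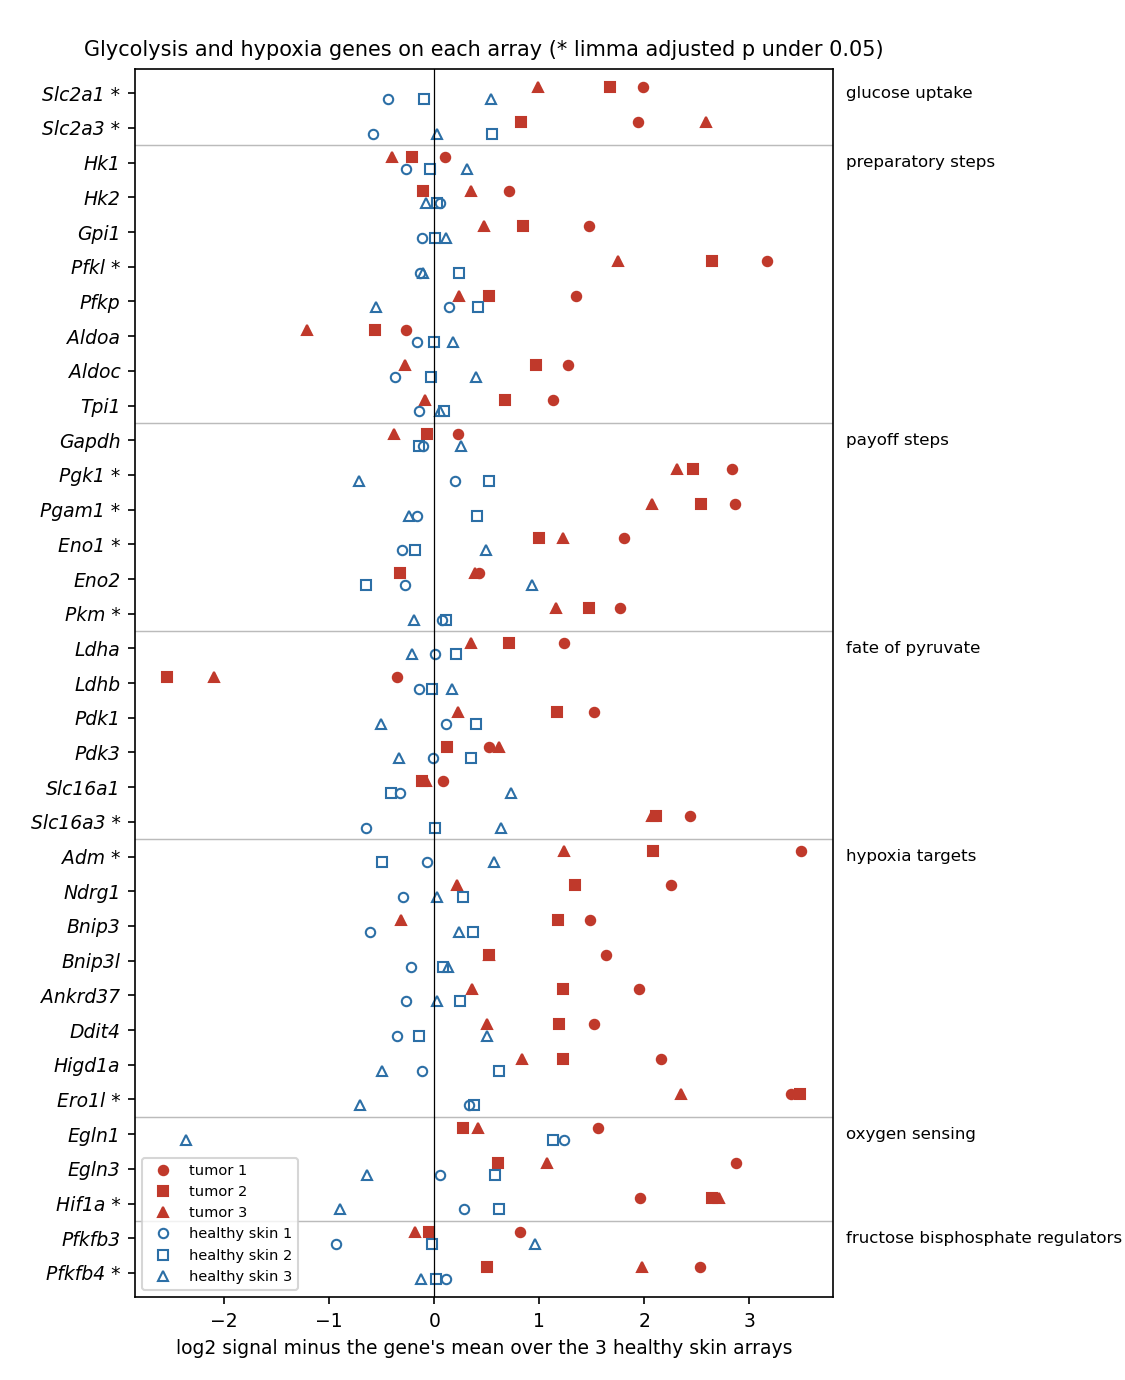
Log2 signal of each of the 35 genes on the 3 tumor arrays (filled red, upper points of a row) and the 3 healthy skin arrays (open blue, lower points), minus the gene's mean over the healthy skin arrays, grouped by role. Each point is 1 array, and an asterisk marks the 12 genes with a limma adjusted p under 0.05, all of which have their 3 tumor points to the right of their 3 healthy skin points.

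Both genes of glucose uptake were higher in tumors. Slc2a1, the ubiquitous glucose transporter (probe at chr4:118809864-118809923, mm9), had log2 signals of 5.54, 5.23 and 4.54 in tumors 1, 2 and 3, against 3.11, 3.46 and 4.09 in healthy skin 1, 2 and 3. The lowest tumor lay 0.45 above the highest healthy skin sample, and the difference was 2.93-fold (log2 fold change 1.55 ± 0.39 SE, limma adjusted p = 0.0262, n = 3 each). Slc2a3, a transporter of high glucose affinity found in neurons and white blood cells (chr6:122678075-122678134), had -0.25, -1.36 and 0.40 in tumors, against -2.77, -1.64 and -2.16 in healthy skin. Its tumor values were the more scattered and tumor 2 came close to healthy skin 2, with a 3.44-fold difference (log2 fold change 1.78 ± 0.51 SE, limma adjusted p = 0.0395). Of the 10 genes of the neutrophil and macrophage list 4 were higher in tumors and 1, Itgam (-2.60, adjusted p = 0.0104, named after its value was seen), was lower. The array median of the list was 2.01 to 4.08 in tumors, against 0.40 to 1.34 in healthy skin, and its part in the change of Slc2a3 was not tested.

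The preparatory steps, from hexokinase to triosephosphate isomerase, held 8 genes, of which 1 was higher, 0 were lower and 7 did not pass. Pfkl, the liver-type subunit of phosphofructokinase, the enzyme of the committed step (chr10:77450926-77450985), had 3.59, 3.06 and 2.16 in tumors, against 0.28, 0.65 and 0.31 in healthy skin. The groups were far apart, and the difference was 5.74-fold (log2 fold change 2.52 ± 0.40 SE, limma adjusted p = 0.0052). Gpi1, glucose-6-phosphate isomerase, had 7.99, 7.36 and 6.99 in tumors, against 6.40, 6.52 and 6.63 in healthy skin (log2 fold change 0.93, adjusted p = 0.0741). Its groups did not overlap, and of its 3 probes, which overlap each other, 2 passed the test when each probe was fitted by itself (adjusted p = 0.049 and 0.0415), and neither did without healthy skin 3 (0.0693 and 0.0587). The hexokinase genes Hk1 and Hk2, whose products trap glucose in the cell, had log2 fold changes of -0.17 and 0.32, with overlapping groups. Pfkp, the platelet-type phosphofructokinase subunit, had 0.70, the aldolase gene Aldoc had 0.66 and Tpi1, triosephosphate isomerase, had 0.57, also with overlap. A fainter, more 3′ probe of Pfkp had the opposite sign (-1.25, limma adjusted p = 0.0891 with each probe fitted by itself). Its mean was -3.52 in tumors and -2.27 in healthy skin. Aldoa, the aldolase of muscle and of most other tissues, had 9.04, 8.74 and 8.09 in tumors, against 9.14, 9.30 and 9.48 in healthy skin. All its tumors lay below all healthy skin samples, and the change did not pass (log2 fold change -0.68, adjusted p = 0.159, and 0.21 with spike-in scaling).

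The payoff steps, from glyceraldehyde-3-phosphate to pyruvate, held 6 genes, of which 4 were higher. Pgk1, phosphoglycerate kinase, the first step that makes ATP, had 7.65, 7.27 and 7.12 in tumors, against 5.0, 5.33 and 4.10 in healthy skin (5.80-fold, log2 fold change 2.54 ± 0.38 SE, limma adjusted p = 0.00432). Its only probe is annotated to chr3:57906830-57906894 although Pgk1 is an X-linked gene, so what this probe measures is uncertain, and without it 11 of the genes were called. Pgam1, phosphoglycerate mutase (chr19:41992898-41992957), had 7.32, 7.0 and 6.54 in tumors, against 4.3, 4.87 and 4.22 in healthy skin (5.62-fold, log2 fold change 2.49 ± 0.33 SE, adjusted p = 0.00279). The lowest tumor exceeded the highest healthy skin sample by 1.79 for Pgk1 and 1.67 for Pgam1. Eno1, the enolase of most tissues (chr4:149622928-149622987), had 7.68, 6.87 and 7.10 in tumors, against 5.56, 5.69 and 6.36 in healthy skin (2.54-fold, log2 fold change 1.35 ± 0.35 SE, adjusted p = 0.03). Pkm, the pyruvate kinase gene of muscle, growing and tumor cells (chr9:59526867-59526926), had 6.48, 6.19 and 5.87 in tumors, against 4.79, 4.82 and 4.52 in healthy skin (2.77-fold, log2 fold change 1.47 ± 0.29 SE, adjusted p = 0.0109). The Pkm values were tight in both groups, and the probe was not assigned to a splice form of the gene. Gapdh, glyceraldehyde-3-phosphate dehydrogenase, had 8.78, 8.48 and 8.17 in tumors, against 8.44, 8.41 and 8.80 in healthy skin (log2 fold change -0.07, adjusted p = 0.866), and the neuronal enolase gene Eno2 had a change of 0.16 (adjusted p = 0.815). Both overlapped between the groups.

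Of 6 genes that decide the fate of pyruvate, 1 was higher. Slc16a3, a lactate exporter of glycolytic cells (chr11:120820030-120820089), had 5.16, 4.83 and 4.80 in tumors, against 2.07, 2.73 and 3.36 in healthy skin. The tumors lay close together and all of them well above healthy skin (4.62-fold, log2 fold change 2.21 ± 0.38 SE, limma adjusted p = 0.00676). A second probe of the gene gave 2.16, but it starts 7 bases from the first and overlaps it. Slc16a1, a monocarboxylate transporter of wide expression, had a change of -0.04 (adjusted p = 0.949). Ldha, the lactate dehydrogenase subunit of lactate-making tissues, had 8.82, 8.30 and 7.94 in tumors, against 7.60, 7.80 and 7.37 in healthy skin. The groups did not overlap, but the change did not pass (1.70-fold, log2 fold change 0.77 ± 0.32 SE, adjusted p = 0.117). Ldhb, the subunit of heart and other oxidative tissues, had 3.74, 1.55 and 2.01 in tumors, against 3.96, 4.08 and 4.27 in healthy skin. Tumor 1 lay near the healthy skin samples and the other tumors well below them (log2 fold change -1.67 ± 0.55 SE, adjusted p = 0.0622). Without tumor 1 the change of Ldhb was -2.32 and passed (adjusted p = 0.00668). The pyruvate dehydrogenase kinases Pdk1 and Pdk3, which restrain entry of pyruvate into mitochondria, had changes of 0.97 and 0.42 with overlapping groups.

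Among 3 genes of oxygen sensing, Hif1a itself was higher. Its probe (chr12:75047269-75047329) gave 2.10, 2.79 and 2.86 in tumors, against 0.42, 0.76 and -0.76 in healthy skin (5.42-fold, log2 fold change 2.44 ± 0.45 SE, limma adjusted p = 0.00931). A second, more 5′ probe passed too, with a smaller change of 0.96 (adjusted p = 0.041). Without healthy skin 3, the lowest sample, the change of the first probe was 1.99 and still passed (adjusted p = 0.0152), and that of the second was 0.86 and did not (adjusted p = 0.0568). Egln3, a prolyl hydroxylase that is itself a hypoxia target, had 4.66, 2.40 and 2.86 in tumors, against 1.85, 2.37 and 1.15 in healthy skin. Its groups did not overlap, but tumor 2 and healthy skin 2 nearly met (log2 fold change 1.52 ± 0.62 SE, adjusted p = 0.109). Egln1, the main hydroxylase of Hif1a, had -1.16, -2.45 and -2.31 in tumors, against -1.48, -1.59 and -5.09 in healthy skin. Only healthy skin 3 was low and it was not well above background there, so the change of 0.75 (adjusted p = 0.583) became -0.44 without that array.

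Of the 8 hypoxia targets 2 were higher in tumors, 0 were lower and the other 6 had changes from 0.78 to 1.41. Ero1l, an oxidase that helps to form disulfide bonds in the endoplasmic reticulum (chr14:45904192-45904251), had 1.14, 1.22 and 0.08 in tumors, against -1.93, -1.89 and -2.97 in healthy skin. This was the largest change among the 35 genes (8.43-fold, log2 fold change 3.08 ± 0.45 SE, limma adjusted p = 0.0038). Adm, the vasodilator peptide adrenomedullin (chr7:117773088-117773147), had 2.34, 0.93 and 0.09 in tumors, against -1.22, -1.65 and -0.59 in healthy skin (4.82-fold, log2 fold change 2.27 ± 0.59 SE, adjusted p = 0.0286). The tumors differed from each other by more than the healthy skin samples did, and all were higher. Higd1a, a mitochondrial protein, had 5.19, 4.26 and 3.87 in tumors, against 2.91, 3.65 and 2.54 in healthy skin (log2 fold change 1.41, adjusted p = 0.0546). Bnip3l, a mitophagy receptor, and Ankrd37 also had groups that did not overlap (log2 fold changes 0.89 and 1.18, adjusted p = 0.117 and 0.0819). For Ndrg1 (1.27), the mTOR inhibitor gene Ddit4 (1.07) and the mitophagy receptor gene Bnip3 (0.78), tumor 3 lay within the range of healthy skin and tumors 1 and 2 above it.

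Of the regulators that set the level of fructose 2,6-bisphosphate, an activator of phosphofructokinase, Pfkfb4 (chr9:108934652-108934711) had 3.90, 1.87 and 3.35 in tumors, against 1.48, 1.38 and 1.24 in healthy skin (3.19-fold, log2 fold change 1.67 ± 0.51 SE, limma adjusted p = 0.0483). Its healthy skin values were tight and tumor 2 was the nearest to them. Pfkfb3 had 2.79, 1.92 and 1.78 in tumors, against 1.03, 1.94 and 2.92 in healthy skin, with no separation (log2 fold change 0.20, adjusted p = 0.8).

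The calls differed in how far they depended on the settings. Of the 12 called genes, 7 were called in all 20 alternatives run: Pfkl, Pgk1, Pgam1, Pkm, Slc16a3, Hif1a and Ero1l. The other 5 calls were each lost in 6 to 11 of the 20. Slc2a1 was lost without healthy skin 1, healthy skin 2, tumor 1 or tumor 2 (adjusted p = 0.0791, 0.0757, 0.0758 and 0.0788). Adm was lost without the same arrays (adjusted p = 0.0673, 0.0816, 0.0509 and 0.0635), as was Eno1 (0.0921, 0.0906, 0.0814 and 0.0512), which was also lost without tumor 3 (0.0627). These 3 genes kept a positive change under every alternative, down to 1.01 for Slc2a1, 1.66 for Adm and 0.86 for Eno1. Slc2a3 was lost without any array but tumor 2 (adjusted p = 0.107, 0.0521 and 0.0902 without healthy skin 1, 2 and 3, and 0.102 and 0.0994 without tumor 1 and 3), and Pfkfb4 was also lost without any array but tumor 2 (0.0925, 0.103 and 0.114 without healthy skin 1, 2 and 3, and 0.12 without tumor 1 or 3). Their lowest changes were 1.23 and 1.13. All 5 calls were also lost without a detection filter (adjusted p = 0.0626 to 0.0988) and with the slide row as a block (0.125 to 0.169), a fit in which healthy skin 3 is the only healthy skin array set against tumors. Slc2a3 was lost with normexp background correction (0.0559) and Pfkfb4 with quantile normalization (0.0692) and with the authors' deposited values (0.0595). Of the 23 genes that did not pass, 9 passed under at least 1 alternative, most often Gpi1 and Ldhb with 6 each, and 14 passed under none.

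**Figure D2:**
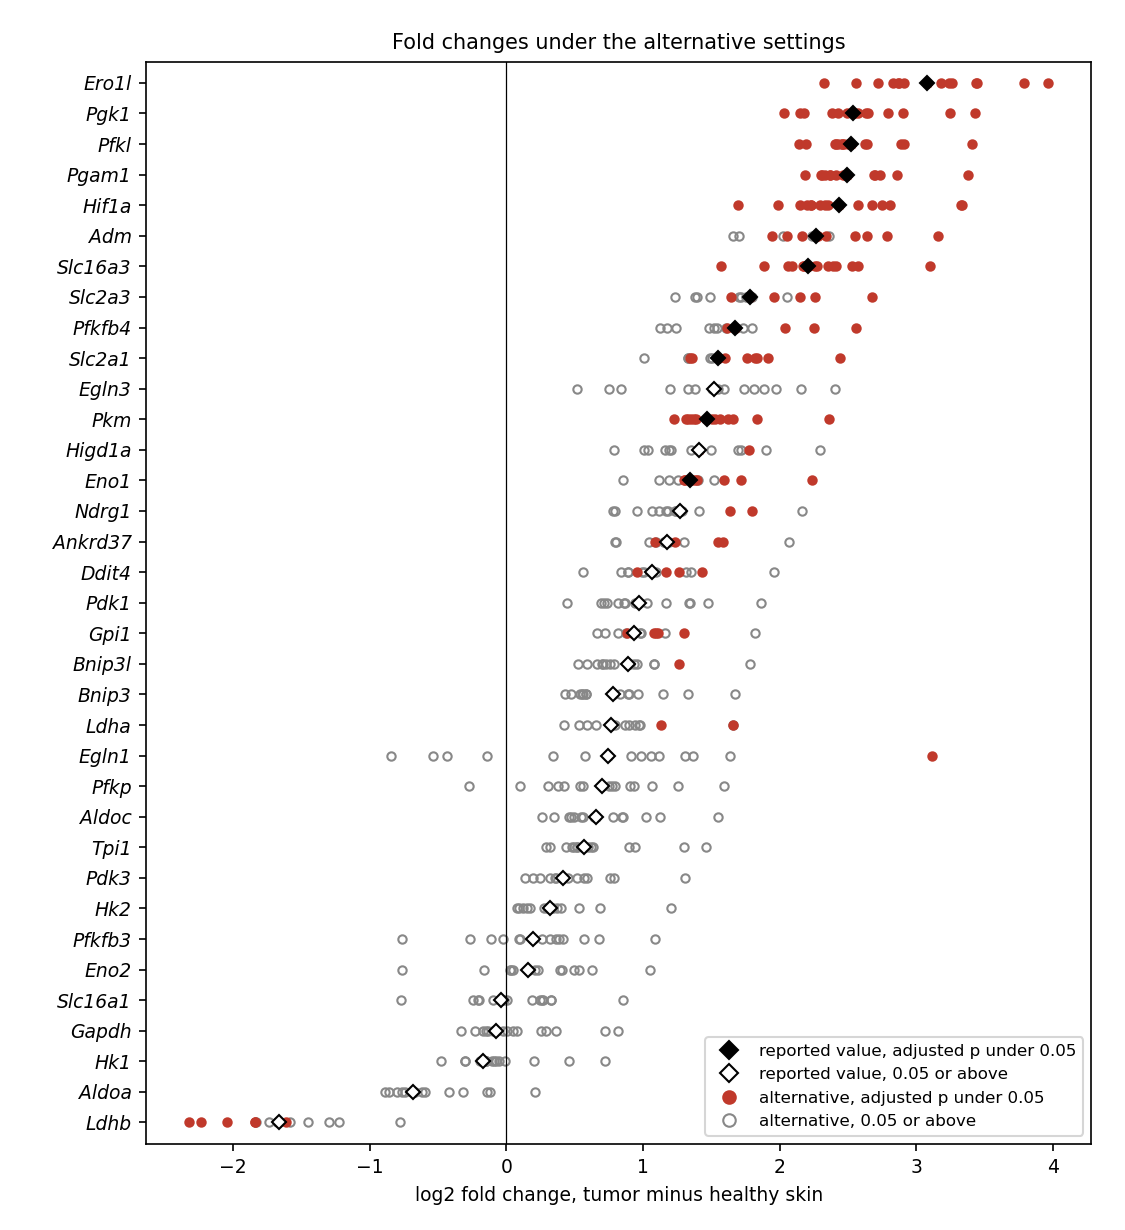
Log2 fold change of tumor over healthy skin for each of the 35 genes: the diamond is the reported value (filled where the limma adjusted p was under 0.05) and each circle is 1 alternative setting (filled red where called). The 7 genes called under every alternative have only red circles, and genes near 0 such as Gapdh, Hk1 and Slc16a1 have circles on both sides of 0.

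Isozymes of some steps moved apart between tumors and healthy skin, while the ratios of others overlapped between the groups. Of 28 other genes of glycolysis and gluconeogenesis, 23 were measured, 1 was higher and 7 were lower, against 10.3% and 15.6% of all features. The median log2 fold change of the 23 was -0.47, against -0.16 over all features. The lower ones were led by muscle-type isozymes. Eno3, the muscle enolase, had 1.87, 1.97 and 1.48 in tumors, against 7.04, 7.11 and 7.36 in healthy skin (log2 fold change -5.40 ± 0.28 SE, limma adjusted p = 0.000173). Pgam2, the muscle phosphoglycerate mutase, had 0.81, 0.64 and -0.03 in tumors, against 5.37, 5.75 and 4.91 in healthy skin (log2 fold change -4.87, adjusted p = 0.000417). Pfkm, the muscle phosphofructokinase, had 0.34, 0.87 and 0.70 in tumors, against 4.81, 5.06 and 5.24 in healthy skin (log2 fold change -4.40, adjusted p = 0.000294). All 3 genes had narrow ranges within each group and no overlap. The insulin-regulated transporter gene Slc2a4 was lower as well (log2 fold change -3.24, adjusted p = 0.00206). The gene that was higher, named here after its value was seen, was Pgm2, a phosphoglucomutase (2.58, adjusted p = 0.00595). The 16 of 16 skeletal muscle markers that were lower moved with the muscle isozymes, at an array median of 0.64 to 1.27 in tumors, against 4.83 to 6.05 in healthy skin. All 16 were well above background on every healthy skin array and 15 of them on every tumor array, and their part in these changes was not tested.

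The ratio of both isozymes on an array is not moved by a scaling that shifts the whole array by 1 constant (75th percentile, median or spike-in RNA), but it can move with quantile normalization or another background correction. With normexp correction the sign of the change of Slc2a3 over Slc2a1 turned. Pgam1 over Pgam2 was higher in tumors by 7.36 on the log2 scale, with an SD of 0.11 over the tumors and 0.19 over healthy skin. Pfkl over Pfkm was higher by 6.92, Eno1 over Eno3 by 6.75 and Pfkp over Pfkm by 5.10. Ratios with Pfkp rest on its brightest probe, and its fainter probe changed in the opposite direction. The other pairs had smaller changes. Pfkl over Pfkp was higher by 1.82, Eno1 over Eno2 by 1.18, Slc16a3 over Slc16a1 by 2.25 and Ldha over Ldhb by 2.43, while Aldoa over Aldoc was lower by a log2 change of -1.34. In each of these pairs the groups did not overlap. Between Hk2 and Hk1 (0.48), Slc2a3 and Slc2a1 (0.23), Pdk1 and Pdk3 (0.55), Bnip3 and Bnip3l (-0.11), Egln3 and Egln1 (0.77) and Pfkfb3 and Pfkfb4 (-1.47) the groups overlapped. Over the 17 pairs, the smallest p that an exact two-sided permutation test allows with 3 arrays a group is 0.1 (0.155 after Benjamini-Hochberg adjustment), so no pair could pass.

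**Figure D3:**
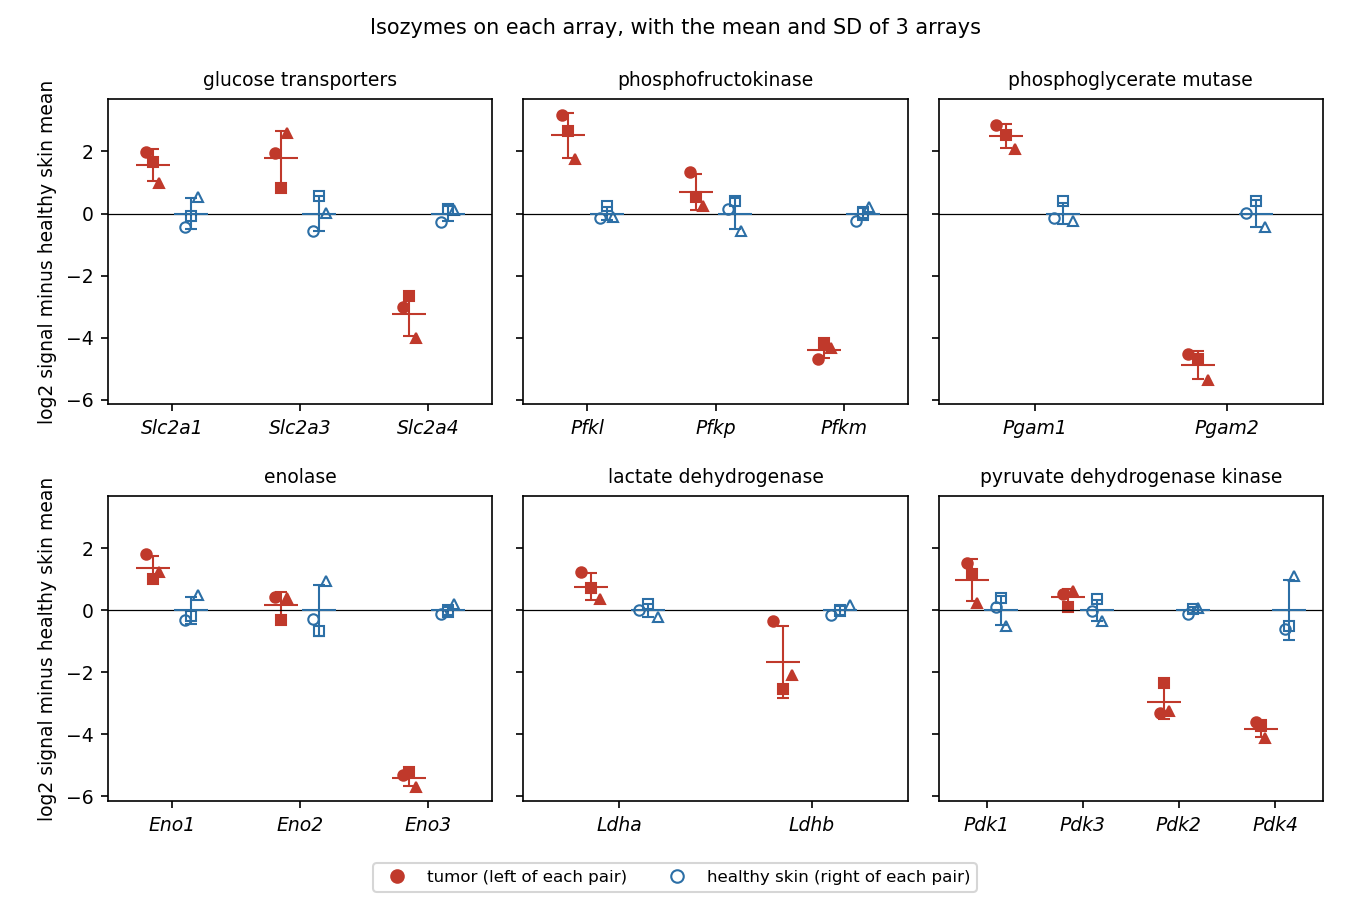
Log2 signal of isozyme genes on each array minus the gene's mean over healthy skin, with tumors (filled red) left and healthy skin (open blue) right of each position, and bars for the mean and SD of 3 arrays. Pfkl, Pgam1 and Eno1 lie above 0 in all tumors while their muscle-type partners Pfkm, Pgam2 and Eno3 lie 4 or more log2 units below it.

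Genes of neighbouring pathways were measured as well. Of 13 genes of the pyruvate dehydrogenase complex and pyruvate entry, 0 were higher and 5 were lower (limma). Over all features 10.3% were higher and 15.6% lower. At an unadjusted p under 0.05, 0 of the 13 were higher and 6 lower, and the share of all features there is not given. Pdk4, the kinase of fasting muscle, had -1.08, -1.21 and -1.60 in tumors, against 1.93, 2.01 and 3.64 in healthy skin (log2 fold change -3.82, adjusted p = 0.00241), and Pdk2 (-2.96), the mitochondrial pyruvate carrier gene Mpc1 (-1.34) and Pdpr (-1.33) were lower too. Pdk1 over Pdk4 was higher in tumors by 4.79, without overlap. Of 19 measured pentose phosphate and glycogen genes 2 were higher and 6 lower, against 10.3% and 15.6% of all features. The higher ones, named after their values were seen, were the oxidative pentose phosphate dehydrogenase genes G6pdx (log2 fold change 1.45, adjusted p = 0.0119) and Pgd (1.49, adjusted p = 0.0108). The lower ones were led by the glycogen genes Pygm (-5.35), the muscle phosphorylase, Gys2 (-3.85, well above background in 1 of 3 tumors), Phkg1 (-3.78) and Phka1 (-3.61). Of 17 tricarboxylic acid cycle genes 0 were higher and 0 lower by limma, against 10.3% and 15.6% of all features. At an unadjusted p under 0.05, 1 was higher and 2 were lower. The median log2 fold change of the 17 was -0.01, against -0.16 over all features.

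Other genes of the hypoxia pathway were also measured. Of 37 other known targets, 11 were higher and 3 lower in tumors, against 10.3% and 15.6% of all features, with a median log2 fold change of 0.64. Hilpda, a lipid droplet protein, had 4.46, 4.32 and 3.77 in tumors, against 0.18, 0.46 and -0.26 in healthy skin (log2 fold change 4.06, limma adjusted p = 0.000563). The groups lay far apart. The chemokine receptor gene Cxcr4 was higher (2.57, adjusted p = 0.0169), as was Vegfa, the angiogenic growth factor (3.73, 3.62 and 2.34 in tumors, against 1.15, 1.25 and 1.66 in healthy skin, log2 fold change 1.88, adjusted p = 0.0185). Car9, a carbonic anhydrase often used as a hypoxia marker, had 1.35, -0.98 and -1.27 in tumors, against -1.76, -1.45 and -0.77 in healthy skin. Only tumor 1 stood apart, and the change did not pass (1.03, adjusted p = 0.296). The targets that were lower were Rora (-3.27), Zfp395 (-2.38) and Rragd (-1.71, well above background in 2 of 3 tumors), the last 2 named after their values were seen. Of 11 genes of HIF subunits, hydroxylases and partners, 0 were higher and 2 lower by limma, against 10.3% and 15.6% of all features. At an unadjusted p under 0.05 the numbers were also 0 and 2. The lower ones were Arnt2 (-1.49, well above background in 1 of 3 tumors) and the coactivator gene Crebbp (-1.24). Epas1, the paralog of Hif1a, had 3.61, 2.90 and 4.10 in tumors, against 3.97, 4.37 and 4.58 in healthy skin (-0.77, adjusted p = 0.165), and Hif3a had a change of -1.93 (adjusted p = 0.156). Hif1a over Epas1 was higher in tumors by 3.21 on the log2 scale, without overlap.

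The 3 tumors were not alike. Of the 35 genes, 31 had their highest tumor value in tumor 1, against 46.2% of all features, and so did all 14 enzymes of the preparatory and payoff steps and 7 of the 8 hypoxia targets. All 8 hypoxia targets were lowest in tumor 3, against 10338 of all 24757 features. The median of the hypoxia targets relative to healthy skin was 2.05 in tumor 1, 1.23 in tumor 2 and 0.51 in tumor 3, and that of the preparatory steps was 1.20, 0.59 and 0.07. Payoff steps had medians of 1.79, 1.24 and 1.19. Hif1a ran the other way and had its lowest tumor value in tumor 1. With other scalings or backgrounds the number of genes highest in tumor 1 was 30 (median), 31 (normexp) and 23 (quantile). It was 22 with the authors' deposited values and 11 with spike-in RNA, under which 11.6% of all features were highest in tumor 1. Under each of these, 7 or 8 of the 8 hypoxia targets were lowest in tumor 3, and the share of all features lowest there is not given. The number of the 14 enzymes highest in tumor 1 was 13 (median), 14 (normexp), 7 (quantile), 7 (the authors' deposited values) and 2 (spike-in RNA), against 38.0%, 59.4%, 37.1%, 38.4% and 11.6% of all features. The number of hypoxia targets highest in tumor 1 was 7 under each of these but spike-in RNA, where it was 5. Tumor 1 also had the highest background, and the part of that background in the order was not tested. The order of tumors was noticed in these values and is a description of 3 biopsies.

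Healthy skin 3 stood apart in a way that depended on the probe. For Gapdh, 2 probes lying 1381 and 1464 bases 5′ of the most 3′ probe in the genome were 3.34 and 3.22 lower on the log2 scale in healthy skin 3 than in the mean of healthy skin 1 and 2. The probes at 0 to 30 bases differed by -0.44 to 0.38, and the probe at 1131 bases was higher by 1.24. In Ldha only the middle of 3 probes was so low (-3.71), with -0.23 at the 5′-most and -0.32 at the 3′-most probe. Tpi1 had -2.97 at its 5′ probe and 0.08 at its 3′ probe. The 3 probes below show where this happened. Each sequence is the array's own, in lower case throughout as no part is marked.
Gapdh probe, chr6:125113312-125113371, mm9, minus strand: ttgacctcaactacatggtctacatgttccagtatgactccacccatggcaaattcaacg
Ldha probe, chr7:54107294-54107353, mm9, plus strand: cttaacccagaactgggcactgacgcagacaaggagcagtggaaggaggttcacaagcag
Tpi1 probe, chr6:124761923-124761982, mm9, minus strand: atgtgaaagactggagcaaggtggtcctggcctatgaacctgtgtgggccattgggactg

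The size of the change differed between probes of the same gene. The Gapdh probe shown had a change of 1.90 with healthy skin 3 (limma adjusted p = 0.142) and 0.82 without it, the Ldha probe 2.66 (adjusted p = 0.0824) and 1.42, and the Tpi1 probe 2.04 (adjusted p = 0.104) and 1.05. The brightest probes, which stand for these genes above, had changes of 0.05 (Gapdh), 0.66 (Ldha) and 0.60 (Tpi1) without that array, against -0.07, 0.77 and 0.57 with it. The 5′-most Ldha probe passed the test (1.56, adjusted p = 0.0303) and did not without healthy skin 3 (1.48, adjusted p = 0.0718). The 5′ and 3′ probes of 2786 genes, 500 to 20000 bases apart, were each set against their mean over the other arrays of the same group. The 5′ deviation lay more than 1 below the 3′ deviation on the log2 scale in 32.1% of genes on healthy skin 3. On each other array this share was 3.16% to 4.41%. The median difference was -0.46 on healthy skin 3, against -0.12 to 0.32 elsewhere. Healthy skin 3 is part of the reference of the other healthy skin arrays, so their values depend on it. The label gives an RNA integrity number of 9 for every sample. The cause of this pattern was not tested. Without healthy skin 3, 10 of the 35 genes were called higher, against 9.0% of all features. Slc2a3 (1.80, adjusted p = 0.0902) and Pfkfb4 (1.61, adjusted p = 0.114) no longer passed the test.

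**Figure D4:**
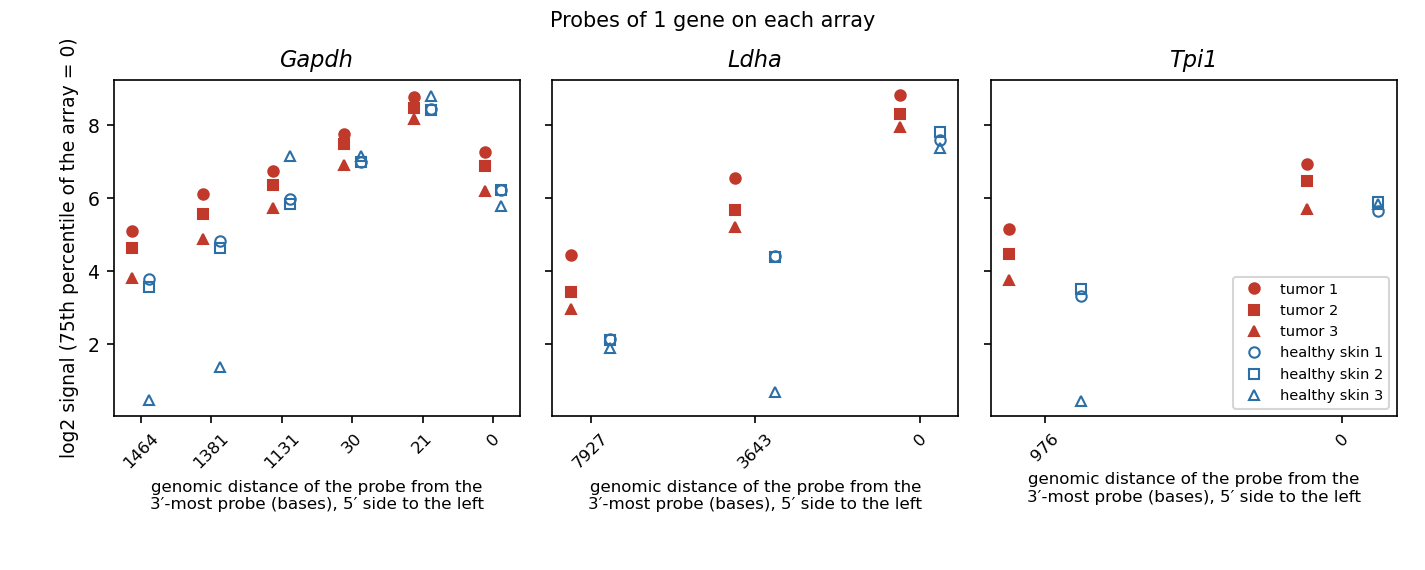
Log2 signal of each probe of Gapdh, Ldha and Tpi1 on the 3 tumor arrays (filled red, left) and the 3 healthy skin arrays (open blue, right), ordered from 5′ (left) to 3′ (right) and labelled by genomic distance in bases from the most 3′ probe. The open triangle of healthy skin 3 drops by 2.97 to 3.71 log2 units below the mean of healthy skin 1 and 2 at 2 Gapdh probes, 1 Ldha probe and 1 Tpi1 probe.

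Promoters of the genes were searched for the core of the hypoxia response element, ACGTG or GCGTG on either strand, in the 250 bases before each transcription start (RefSeq sequences, GRCm38.p6, a later build than the probe positions). The palindrome CACGTG counts as overlapping matches on both strands. Of the 35 genes 32 had a promoter sequence, and 29 of these held at least 1 match, against 41.5% of all mouse genes and 55.6% of the 12850 genes among the features tested. The called genes held one in 11 of 11 and the others in 18 of 21. Over single promoters the share was 83.3% of 42 for these genes, against 38.6% of all 32851 mouse promoters of the same length. The promoters of these genes were also richer in G and C (median 63.4%, against 52.4%), and the part of base composition in the share was not tested. A match is a run of letters and not a site shown to be bound. The 180 bases directly upstream of the start are shown for 6 called genes that between them cover uptake, the pathway, lactate export and 2 hypoxia targets. Capitals mark the matches, all read 5′ to 3′ on the gene's strand.
Slc2a1, chr4:119108565-119108744, plus strand: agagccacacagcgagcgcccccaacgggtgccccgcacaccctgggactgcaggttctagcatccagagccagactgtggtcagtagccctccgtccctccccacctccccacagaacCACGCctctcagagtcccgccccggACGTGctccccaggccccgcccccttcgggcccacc
Pgk1, chrX:106186920-106187099, plus strand: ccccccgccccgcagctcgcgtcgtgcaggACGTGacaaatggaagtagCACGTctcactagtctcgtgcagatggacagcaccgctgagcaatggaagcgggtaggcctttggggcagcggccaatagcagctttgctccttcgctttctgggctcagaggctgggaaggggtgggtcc
Pgam1, chr19:41911691-41911870, plus strand: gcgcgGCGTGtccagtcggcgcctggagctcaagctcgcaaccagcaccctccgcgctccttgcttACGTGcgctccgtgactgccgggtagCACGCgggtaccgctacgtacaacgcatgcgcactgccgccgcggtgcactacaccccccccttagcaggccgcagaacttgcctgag
Slc16a3, chr11:120948887-120949066, plus strand: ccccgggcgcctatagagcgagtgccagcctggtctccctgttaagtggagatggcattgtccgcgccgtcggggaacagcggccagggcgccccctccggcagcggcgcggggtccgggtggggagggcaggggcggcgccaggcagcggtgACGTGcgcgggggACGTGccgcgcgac
Adm, chr7:110627477-110627656, plus strand: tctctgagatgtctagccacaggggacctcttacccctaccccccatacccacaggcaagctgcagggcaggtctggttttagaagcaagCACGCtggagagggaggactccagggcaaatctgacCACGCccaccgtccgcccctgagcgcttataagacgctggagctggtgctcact
Ero1l, chr14:45318573-45318752, minus strand: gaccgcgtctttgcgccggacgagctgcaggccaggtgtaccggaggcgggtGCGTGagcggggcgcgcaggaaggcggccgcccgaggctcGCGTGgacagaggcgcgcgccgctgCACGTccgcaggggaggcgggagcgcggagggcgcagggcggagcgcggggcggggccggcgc

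The Slc16a3 window holds 2 copies of ACGTG on the gene's own strand close to the start, at -27 and -14 (counted so that -1 is the base just before the transcription start). The matches of Slc2a1 start at -61 and -36, those of Adm at -90 and -54, and those of Pgk1 farther upstream, at -150 and -131. Pgam1 (-175, -114 and -88) and Ero1l (-128, -88 and -63) hold 3 matches each. The 6 genes shown had log2 fold changes from 1.55 for Slc2a1 to 3.08 for Ero1l. Genes without a match in the 250 bases searched were Eno2, Tpi1 and Gpi1, none of them called, and genes with a match that were not called include Bnip3 with 5 and Slc16a1 with 4 in those 250 bases.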

How the data were processed

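RNA from 6 biopsies (3 tumors, 3 healthy skin) was hybridised to 1-colour Agilent arrays on 1 slide, with 0.2 µg of RNA per sample per the labels. The deposited spot intensities are background-subtracted output of Agilent Feature Extraction (version 10.7.3.1), and probes carry mm9 positions, per the file headers. The deposited series table holds log2 values that rank the spots of each array as the median signal does (Spearman correlation 1) and have column medians of 6.33 to 6.35. Its normalization is not given in the sources used here beyond limma, which the submitters' processing notes name without a version.

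Log2 processed signals were set relative to each array's 75th percentile. Probes with outlier spots (180 of 55681) were left out, and probes that 3 or more of the 6 arrays detected well above background were kept (34284). The brightest probe on the gene's chromosome stood for a gene (24757 features). Of the 60 probes of the 35 genes, 58 were kept, and 3 lay on another chromosome than their gene. The comparison used limma (3.58.1, with R 4.3.3; two-sided, adjusted p under 0.05), and ratios with exact permutation tests in SciPy 1.17.1. The genes, lists and tests were chosen with earlier results of these data known. Named genes are all 35, up to 4 of each other list with the largest change past the test, a fixed panel of 9 and up to 3 of each marker list. One gene that this rule names is not reported here. The scripts were tested on simulated data. Alternatives were other scalings, background corrections, filters, probe choices, variance models, blocks and left-out arrays, and 2 chosen after seeing the data: fits of every probe without healthy skin 3, and the counts without Pgk1. The number of arrays limits the precision.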

Additional observations from a re-analysis of the deposited data

How the results depend on the processing

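The number of the 35 genes called higher was 12, against 10.3% of all features. With median scaling it was 19 (17.7% of all features), and without a detection filter 7 (4.1%, 36019 features tested). With normexp correction it was 15 (10.2%), and with the authors' deposited values 13 (11.8%). It was 12 with quantile normalization (10.1%) and with spike-in scaling (7.7%). Leaving out each array gave 7 to 11, against 5.6% to 9.0% of all features. The number called lower was 0, and 1, Ldhb, with quantile normalization, normexp correction, the authors' deposited values and array weights, without tumor 1 (0 to 1 over all left-out arrays), and without healthy skin 3 and tumor 1 together. The median log2 fold change was 0.97, and 1.86 with spike-in scaling and 0.70 to 1.34 without each array. The causes of these shifts were not tested.

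Nothing in the labels says that replicate numbers pair the arrays. Deviations of same-numbered tumor and healthy skin arrays from their group means correlated at 0.10, 0.13 and -0.08. For tumor and healthy skin arrays of unlike number they correlated at -0.27 to 0.17. With 3 arrays a group, these values cannot decide whether the arrays were paired. With the replicate number as a block, 9 genes were called higher, without Slc2a1, Slc2a3 and Eno1, against 8.8% of all features. Blocking by slide row gave a median log2 fold change of 1.01 for the 35 genes, against -0.33 over all features. Row 1 held only healthy skin 1 and 2, so that fit compares healthy skin 3 by itself with the tumors, and there Egln1 was 3.11 higher and past the test, a value that rests on 1 healthy skin signal not well above background.

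Signs turned for genes that were not called, and none of the turned values below passed the test. Hk1 was 0.20 with median scaling, 0.72 with spike-in scaling and 0.46 as the mean of probes. Gapdh was 0.29 with median scaling, 0.25 with quantile normalization, 0.82 with spike-in scaling, 0.37 with the authors' deposited values, 0.72 as the mean of probes, 0.0050 with array weights, 0.052 without healthy skin 3 and 0.078 without tumor 3 (-0.23 to 0.078 over all left-out arrays). Slc16a1 was 0.33, 0.26, 0.85 and 0.19 under median, quantile and spike-in scaling and the deposited values, 0.24 with array weights, 0.33 without healthy skin 3, 0.0041 without tumor 2 (-0.24 to 0.33 over all) and 0.27 without healthy skin 3 and tumor 1. Aldoa was 0.21 with spike-in scaling. Egln1 was -0.14 with normexp correction, -0.53 with array weights, -0.44 without healthy skin 3 (-0.44 to 1.37 over all) and -0.84 without that array and tumor 1. Pfkp was -0.27 and Pfkfb3 -0.024 as the mean of probes. Pfkfb3 was also -0.76 with the slide row block, -0.27 without healthy skin 1 and -0.11 without tumor 1 (-0.27 to 0.68 over all). Eno2 was -0.77 with the slide row block and -0.16 without healthy skin 2 (-0.16 to 0.63 over all). Without healthy skin 3, single probes turned to 0.052 and 0.37 for Gapdh and 0.27 for Pfkfb3. Of all results of single genes under the alternatives, 595 kept their direction and side of the threshold, 43 lost a call, 30 gained one and 31 turned.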
